A study of Mus musculus with 24 samples.

Results

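The MHC class II antigen presentation genes measured here were 7 genes chosen by name: H2-Aa, H2-Ab1, H2-Eb1, H2-DMa, H2-DMb1, Cd74 and Ciita. They made up 7 of the 36109 genes in the lung count table and 7 of the 36595 genes in the retina table, and all 7 passed the filter on low counts in both tissues, where 16819 lung genes and 19173 retina genes were tested. Class II molecules are pairs of an alpha and a beta chain that carry peptides from engulfed proteins to the surface of dendritic cells, B cells and macrophages, where CD4+ T cells read them. The invariant chain, encoded by Cd74, fills the groove of a new pair on its way to the endosome, and the H2-DM pair then exchanges the remnant of that chain for peptide. Ciita is the coactivator that switches the whole set on, at promoters already bound by the RFX and NF-Y complexes, and interferon-gamma is its classical inducer. In the retina such expression is known mainly from microglia and from perivascular and infiltrating myeloid cells.

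The levels come from whole-tissue RNA of GSDMD-KO pups and WT pups of the same litters, on a C57/B6 background, with 3 mice in each of 4 groups per tissue and 24 samples in all. The KO allele is a germline knockout in every cell, made by a small deletion inside an exon of Gsdmd, the gene of the pore-forming protein of pyroptosis. For lung, WT-RA and KO-RA pups breathed room air (21% oxygen) and WT-O2 and KO-O2 pups breathed 85% oxygen from postnatal day 1 to 14, and lungs were taken on day 15. For retina, WT-RA and KO-RA pups stayed in room air to day 17, whereas WT-O2 and KO-O2 pups had 75% oxygen from day 7 to 12 and then returned to room air, and all retinas were taken on day 18. The retinas of the oxygen groups were therefore collected after days without added oxygen.

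Total counts ran from 28763661 to 29604254 per lung library and from 24863257 to 29093035 per retina library. Gsdmd was at 40.6 to 42.3 CPM, the count normalised to library size, in WT-RA lungs and 32.2 to 36.4 in WT-O2 lungs, against 22.6 to 24.8 in KO-RA and 11.7 to 16.3 in KO-O2 lungs, so KO lungs lay below WT lungs in each treatment. In retina Gsdmd did not check the labels, because the library labelled WT-RA replicate 2 stood at 0.419 CPM, under all 6 KO retinas (0.636 to 2.95). The library labelled KO-O2 replicate 3, at 2.951 CPM, also stood above WT-O2 replicate 2 (2.900) and WT-RA replicate 3 (2.698). Some libraries held RNA of other tissues: lung KO-O2 replicate 1 had 165.5 summed CPM of 6 liver markers, against at most 2.97 in any other lung, and 6 lens markers reached 11590 and 40630 summed CPM in retina WT-RA replicates 2 and 3 and 16560 in KO-RA replicate 3, against at most 204.1 in the other 9 retinas. The 8 pigment epithelium markers summed to 2724 CPM in KO-RA replicate 3, one of the lens retinas, against at most 647.6 in any other retina. Sex was uneven over the groups: among WT lungs Y-linked transcripts were present in 0 room air and 1 hyperoxic sample, among GSDMD-KO lungs in 2 and 3, and in retina in all 6 room air samples and 1 sample of each oxygen group. Each tissue carried its own defining markers: 8 markers of alveolar type 2 cells summed to 14150 CPM or more in every lung, and 6 photoreceptor markers to 50060 CPM or more in every retina. The main results that rest on libraries with foreign RNA or a doubtful label are also given without them.

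Of the 7 genes, 4 had a promoter window in the RefSeq table used (GRCm38.p6, 250 bases before to 50 after the start), with 5 windows in all: H2-Aa, H2-Eb1, H2-DMb1 and H2-DMa, which has 2. H2-Ab1, Cd74 and Ciita had none there. Class II promoters are known for an X box bound by RFX and, next to it, a Y box bound by NF-Y. The letters searched were AAC, taken here as the core of the X box, followed after 25 to 28 bases by ATTGG, the CCAAT box read on its reverse strand; this spacing was chosen after the sequences had been read. The pair was present in the windows of 3 of the 4 members (H2-Aa, H2-Eb1 and H2-DMb1, but neither H2-DMa window) and in 4 of 12 windows from 9 of the other 10 class II pathway genes. These windows were searched on the strand of the gene, and over all 32851 windows 1.15% held the pair on that strand. On either strand 2.49% held the pair, and 37.4% held ATTGG with or without AAC. The bases before the first exon are shown for H2-Aa (chr17:34287824-34288073, minus strand) and H2-Eb1 (chr17:34305617-34305866, plus strand), the genes of a classical alpha and beta chain, and for H2-Ob (chr17:34238655-34238902, plus strand). H2-Ob fell in lung under hyperoxia in both genotypes, whereas H2-Aa and H2-Eb1 did not pass the adjusted threshold in either. AAC and ATTGG of the pair are in capitals, and the sequences run 5′ to 3′ toward the start.
H2-Aa: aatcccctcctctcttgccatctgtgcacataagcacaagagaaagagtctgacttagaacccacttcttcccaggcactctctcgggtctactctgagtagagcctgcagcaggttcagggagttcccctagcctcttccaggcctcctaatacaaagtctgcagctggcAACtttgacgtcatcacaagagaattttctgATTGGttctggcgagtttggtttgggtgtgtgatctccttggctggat
H2-Eb1: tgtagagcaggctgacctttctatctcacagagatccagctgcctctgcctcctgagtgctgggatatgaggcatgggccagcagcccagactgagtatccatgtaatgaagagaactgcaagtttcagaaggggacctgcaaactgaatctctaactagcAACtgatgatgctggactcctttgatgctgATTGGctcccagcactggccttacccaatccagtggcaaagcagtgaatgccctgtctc
H2-Ob: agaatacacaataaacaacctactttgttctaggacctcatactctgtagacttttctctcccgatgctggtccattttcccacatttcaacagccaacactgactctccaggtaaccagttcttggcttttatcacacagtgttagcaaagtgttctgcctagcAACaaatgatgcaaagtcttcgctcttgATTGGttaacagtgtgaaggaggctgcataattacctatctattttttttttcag
The ATTGG began 48 bases before the start in H2-Aa, 59 in H2-Eb1 and 57 in H2-Ob, with 28, 27 and 25 bases between the parts. These matches describe letters in a window and say nothing of whether a factor was bound.

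All 7 genes were well measured in lung. Per length, so that genes can be compared, Cd74 had the highest level in WT-RA lungs at 679.0 CPM per kb of transcript, then H2-Aa at 197.4, H2-Ab1 at 165.1, H2-Eb1 at 62.4, H2-DMb1 at 27.6, H2-DMa at 17.9 and Ciita at 2.63. The order of the genes thus put the invariant chain first, the peptide-binding chains next and the coactivator last. The classical chains and the H2-DM genes lie together on chromosome 17 (GRCm38): H2-Ab1 at chr17:34257689-34269419, H2-Aa at chr17:34282744-34287823, H2-Eb1 at chr17:34305867-34316674, H2-DMa at chr17:34119541-34139101 and H2-DMb1 at chr17:34153072-34160230. Ciita is at chr16:10480059-10528418 and Cd74 is on chromosome 18. The counts are sums over whole genes and do not separate exons, introns or UTRs.

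**Figure D1:**
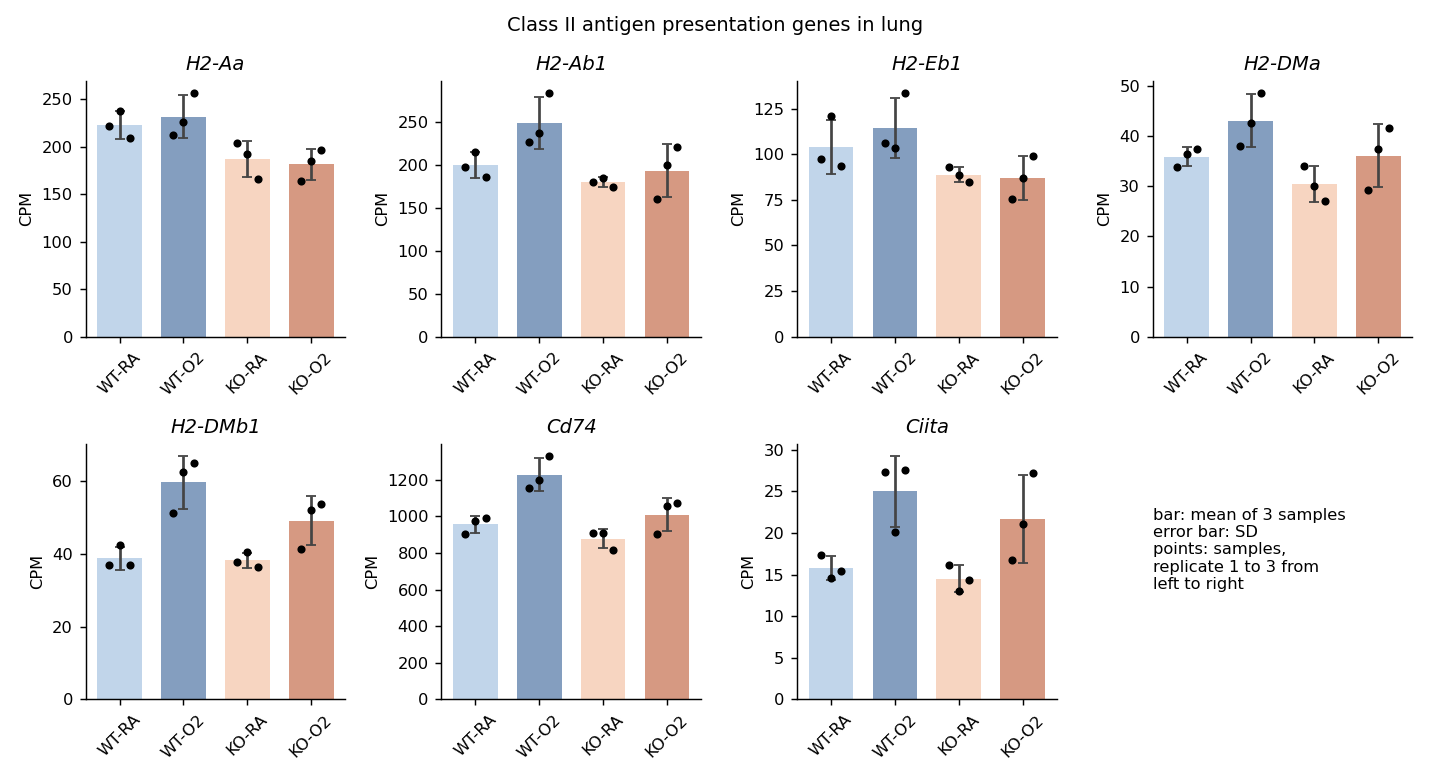
CPM of the 7 genes in each lung library, by group. Bars are means of 3 samples, error bars SD and points the libraries, with linear axes from 0. Cd74, H2-DMb1 and Ciita sit higher in WT-O2 than in WT-RA with no overlap, and H2-Aa hardly differs between these groups.

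In WT lungs, hyperoxia went with modestly higher levels of 4 of the 7 genes: the coactivator Ciita, the peptide-exchange chain H2-DMb1, the invariant chain Cd74 and the class II beta chain H2-Ab1 (edgeR quasi-likelihood test, Benjamini-Hochberg adjusted p under 0.1). Among all genes tested, 49.2% passed that threshold in either direction and 24.5% upward, so the share among the 7 was read against a large background. In whole tissue, more or fewer cells of a type and more or less RNA per cell cannot be told apart. With a fold of at least 2 required in addition, 0 of the 7 were called by edgeR and 0 by DESeq2, where 11.6% of all genes were. An unadjusted p under 0.05 was reached by 4 of the 7 with each tool (49.3% of all genes in edgeR), and for 5 of the 7 every WT-O2 value lay above every WT-RA value (24.6% of all genes). The median log2 fold change of the 7 was 0.32, against -0.01 over all genes tested.

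Ciita measured 17.4, 14.6 and 15.4 CPM in the 3 WT-RA lungs and 27.3, 20.1 and 27.6 in the 3 WT-O2 lungs. All hyperoxic lungs lay above all room air lungs, and the means were 15.8 ± 1.46 and 25.01 ± 4.26 (SD, n = 3). The log2 fold change was 0.66 (SE 0.17), a fold of 1.58, with an edgeR adjusted p of 0.0057.

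H2-DMb1, the beta chain of the peptide exchanger, was at 36.8, 42.5 and 37.0 CPM in WT-RA lungs and at 51.3, 62.6 and 64.9 in WT-O2 lungs, again without overlap. It rose by 0.62 on the log2 scale (SE 0.11, fold 1.54, edgeR adjusted p = 0.00053), the smallest p of the 7. Its level is uncertain in one respect: 31.4% of its 31-base sequences also occur in H2-DMb2, its neighbouring copy, so reads could be split between these genes. The summed CPM of H2-DMb1 and H2-DMb2, a quantity chosen after values had been seen, was 52.0 to 59.7 in WT-RA and 59.8 to 74.2 in WT-O2 lungs, with ranges that nearly touch.

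Cd74 measured 905, 974 and 993 CPM in WT-RA lungs and 1155, 1199 and 1330 in WT-O2 lungs, where every hyperoxic value exceeded every room air value. The log2 fold change was 0.36 (SE 0.09, fold 1.28, edgeR adjusted p = 0.0066). H2-Ab1, the beta chain of the I-A molecule, went from 198, 216 and 186 CPM to 227, 238 and 284, also without overlap, with a log2 fold change of 0.32 (SE 0.11, edgeR adjusted p = 0.036). WT-O2 replicate 3 had the highest value of its group for all 7 genes and was the 1 Y-positive lung of that group. Without this lung the H2-Ab1 difference was 0.22 with an adjusted p of 0.17, whereas Ciita, H2-DMb1 and Cd74 stayed past the threshold (adjusted p = 0.028, 0.0040 and 0.036). With Y-linked expression as a covariate the H2-Ab1 difference was 0.27 with an adjusted p of 0.10, at the threshold.

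H2-Aa, the alpha chain that pairs with H2-Ab1, did not pass: it was at 222, 238 and 209 CPM in WT-RA lungs and at 213, 226 and 256 in WT-O2 lungs, ranges that overlap. Its log2 fold change was 0.06 (SE 0.10, edgeR adjusted p = 0.68). H2-Eb1, the beta chain of the I-E molecule, had means of 104.1 ± 14.9 and 114 ± 16.6 CPM (SD, n = 3; log2 fold change 0.14, SE 0.12, edgeR adjusted p = 0.40). H2-DMa, the partner of H2-DMb1, had 35.9 ± 1.82 and 43.1 ± 5.23 CPM, without overlap, and a log2 fold change of 0.26 (SE 0.13) that missed the threshold at an edgeR adjusted p of 0.11. The gene body of H2-DMa overlaps Brd2 and antisense genes, and that of H2-Eb1 the antisense gene Gm20513, so their counts may hold reads of those genes. Read along the transcripts, 0.0% of the 31-base sequences of H2-DMa and 1.065% of those of H2-Eb1 occur in other genes. Reverse strands were not compared, and the share of such reads was not tested. The ratio of H2-Ab1 to H2-Aa CPM, chosen after the values were seen, was 0.892 to 0.909 in WT-RA and 1.05 to 1.11 in WT-O2 lungs.

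In GSDMD-KO lungs, hyperoxia raised Ciita and H2-DMb1, 2 of the 7 genes, against a background of 46.7% of all genes in either direction and 23.3% upward. Ciita was at 16.2, 13.1 and 14.3 CPM in KO-RA and at 16.8, 21.1 and 27.3 in KO-O2 lungs, with no overlap and a log2 fold change of 0.58 (SE 0.17, fold 1.49, edgeR adjusted p = 0.014). H2-DMb1 was at 37.8, 40.5 and 36.4 CPM in KO-RA and at 41.3, 52.1 and 53.7 in KO-O2 lungs, with a log2 fold change of 0.36 (SE 0.11, edgeR adjusted p = 0.020). The summed CPM of H2-DMb1 and H2-DMb2 overlapped between these groups, at 47.1 to 57.8 and 47.2 to 62.7. The other 5 had log2 fold changes from -0.04 (H2-Aa) to 0.25 (H2-DMa), and Cd74 stood at 0.20 (SE 0.09, edgeR adjusted p = 0.10). With a fold of at least 2 required, 0 of the 7 were called by edgeR or DESeq2 (background 10.6%), and 3 had an unadjusted p under 0.05 with each tool (47.4% of all genes in edgeR). KO-O2 values lay wholly above KO-RA values for 2 of the 7, as for 26.4% of all genes.

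KO-O2 replicate 1, the lung with liver transcripts, had the lowest value of its group for all 7 genes. Without it, 4 of the 7 passed the adjusted threshold in GSDMD-KO lungs: Ciita at 0.73 (adjusted p = 0.0035), H2-DMb1 at 0.47 (adjusted p = 0.0056), H2-DMa at 0.37 (adjusted p = 0.031) and Cd74 at 0.27 (adjusted p = 0.049). KO-O2 replicate 3 had the highest value of its group for all 7 genes. Without that lung the log2 fold changes were 0.38 for Ciita (adjusted p = 0.081), 0.28 for H2-DMb1 (adjusted p = 0.092), 0.15 for Cd74, 0.13 for H2-DMa and -0.01 for H2-Ab1, so 2 of the 7 passed. The part of the liver RNA in the levels of replicate 1 was not tested. The interaction of genotype and hyperoxia, which asks whether the 2 responses differ, passed the threshold for 0 of the 7 in edgeR and in DESeq2 (background 0.00595%), with 0 unadjusted p under 0.05 in either (6.72% of all genes in edgeR). The largest interaction was that of H2-DMb1 at -0.26 (SE 0.16, edgeR adjusted p = 0.84), and all 7 were below 0, as were 49.4% of all genes. Without KO-O2 replicate 1 the interactions of Ciita and H2-DMa were above 0, at 0.07 and 0.11.

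**Figure D2:**
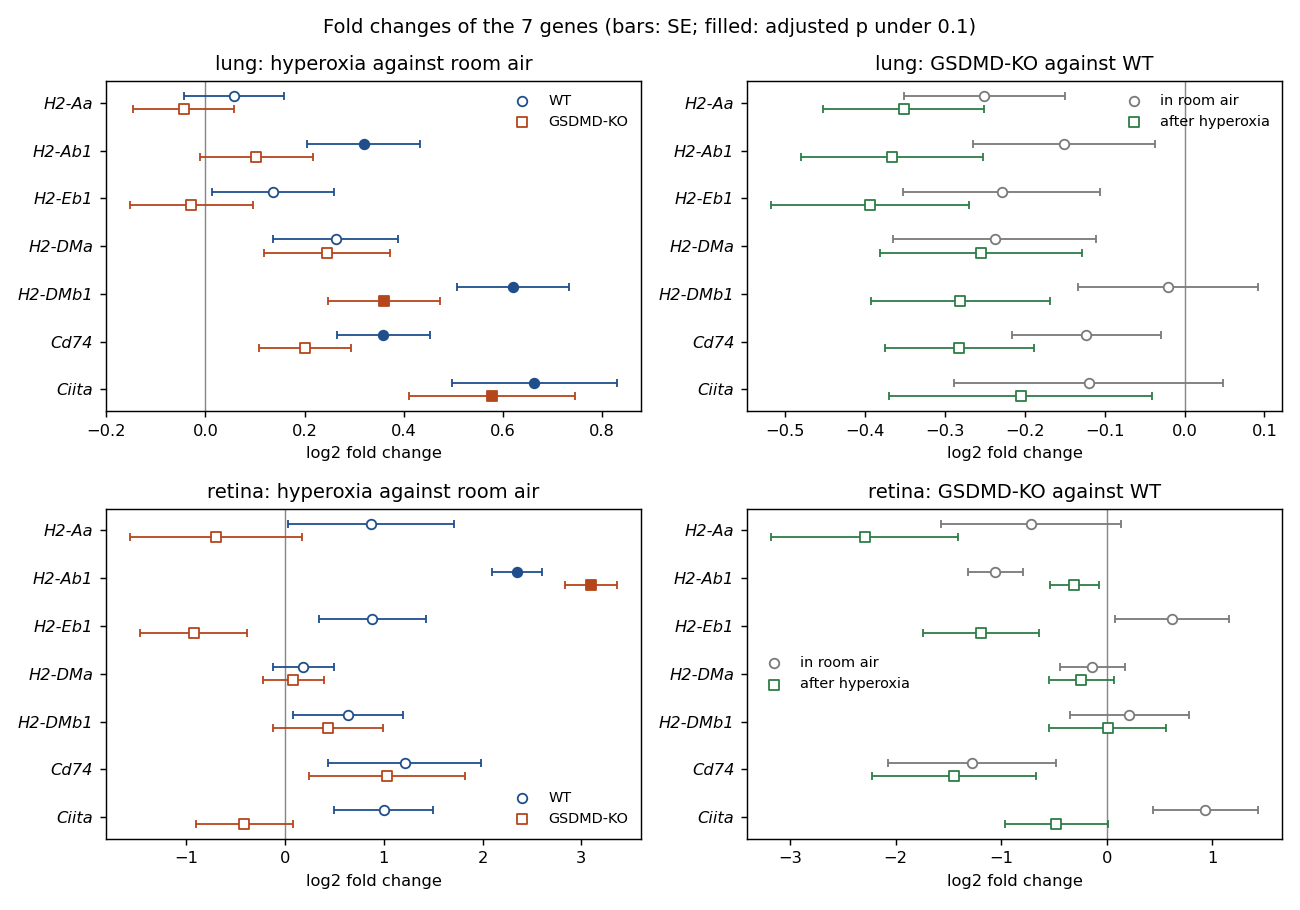
Log2 fold changes of the 7 genes with their SE (horizontal bars) in lung (top) and retina (bottom), for hyperoxia against room air (left) and GSDMD-KO against WT (right). Filled symbols have an adjusted p under 0.1. In lung Ciita and H2-DMb1 are filled in both genotypes, in retina H2-Ab1 alone is, and no genotype difference is filled. The horizontal scales differ between panels.

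Between genotypes, the 7 genes had lower means in GSDMD-KO lungs in both conditions, but no difference passed the adjusted threshold. After hyperoxia all 7 log2 differences of KO-O2 against WT-O2 were below 0, as were 50.2% of all genes, and ranged from -0.39 (H2-Eb1, SE 0.12) to -0.20 (Ciita, SE 0.16). An unadjusted p under 0.05 was reached by 5 of the 7 in edgeR and 5 in DESeq2, against 6.21% of all genes in edgeR, but adjusted p ran from 0.50 to 0.91 and 0 of 7 passed in edgeR or DESeq2 (background 0.0416%, or 0.0238% with a fold of at least 2). H2-Aa was at 213 to 256 CPM in WT-O2 and 164 to 196 in KO-O2 lungs, and Cd74 at 1155 to 1330 and 904 to 1071, both without overlap. H2-Ab1 and H2-Eb1 did not overlap either, at 227 to 284 against 160 to 221 CPM and at 103 to 133 against 75.3 to 99.1 CPM. These 4 of 7 stand against a background of 5.8%, the share of all genes that had KO-O2 values wholly below WT-O2 values.

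Without KO-O2 replicate 1 the same log2 differences ran from -0.31 (H2-Eb1) to -0.05 (Ciita), and without WT-O2 replicate 3 from -0.28 (H2-Aa) to -0.13 (Ciita). Since all 3 KO-O2 lungs and 1 of 3 WT-O2 lungs were Y-positive, sex moved with genotype here. With Y-linked expression as a covariate the differences ran from -0.47 (H2-Eb1) to -0.20 (Ciita), with adjusted p of at least 0.48. In room air, KO-RA against WT-RA, all 7 were again below 0 (50.1% of all genes), from -0.25 (H2-Aa, SE 0.10) to -0.02 (H2-DMb1, SE 0.11). H2-Aa, 1 of the 7, had an unadjusted p under 0.05 with each tool (10.5% of all genes in edgeR), at an edgeR adjusted p of 0.39. In edgeR and in DESeq2 0 of 7 passed (background 0.488%, or 0.137% with a fold of at least 2). H2-Aa, H2-Ab1 and H2-Eb1, 3 of the 7, did not overlap between KO-RA and WT-RA, as for 7.9% of all genes in this direction. H2-Aa measured 209 to 238 CPM in WT-RA and 166 to 204 in KO-RA lungs. Beside these values, the 8 general leukocyte markers were all lower in KO-RA with an unadjusted p under 0.05, and 1 of them passed the adjusted threshold (Itgb2, an integrin chain, -0.57, SE 0.13, adjusted p = 0.093), with sums of 800 to 816 CPM in WT-RA and 581 to 691 in KO-RA. After hyperoxia these sums overlapped, at 676 to 788 CPM in WT-O2 and 677 to 748 in KO-O2. The log2 differences of the 9 macrophage markers in KO-O2 against WT-O2 were all below 0, with a median of -0.22. Of these 9, 3 had an unadjusted edgeR p under 0.05 (6.21% of all genes) and 0 passed the adjusted threshold. Macrophage sums did not overlap, at 578 to 624 CPM in WT-O2 and 453 to 561 in KO-O2. All 7 erythroid markers tested were higher in KO-O2 than in WT-O2 without overlap, with a median log2 difference of 2.59 and adjusted p of 0.21 to 0.40, and the 7 summed to 2920 to 4152 CPM in WT-O2 and 5970 to 29930 in KO-O2. The part of these cells in the genotype differences of the 7 genes was not tested.

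The other genes of the class II pathway were mixed in lung. Of 9 tested among 10 listed, 1 rose and 4 fell in WT lungs at an adjusted p under 0.1, with a median log2 fold change of -0.05. Over all genes tested, 24.5% rose and 24.7% fell in WT lungs, and 23.3% and 23.4% in GSDMD-KO lungs. H2-Ea, the alpha chain of the I-E molecule and partner of H2-Eb1, was at 0 in all 12 lungs and was not tested. Lgmn, an endosomal protease that trims antigens and the invariant chain, rose from 168 to 327 CPM (log2 fold change 0.96, SE 0.09, adjusted p = 2.3e-06). H2-Oa and H2-Ob, the chains of H2-DO, which restrains H2-DM mainly in B cells, fell by 1.36 and 1.40 on the log2 scale (SE 0.26 and 0.17). H2-DMb2 fell by 0.87 (SE 0.19, adjusted p = 0.0021). In GSDMD-KO lungs 2 rose and 4 fell: H2-Ob fell by 1.76 and H2-DMb2 by 1.09 on the log2 scale, while Lgmn rose by 1.05 and Ctss, the cathepsin that cleaves the invariant chain, 0.49 (SE 0.11, adjusted p = 0.0025). The ratio of summed H2-Oa and H2-Ob to summed H2-DMa and H2-DMb1 CPM, chosen after these values were seen, was 0.274 to 0.365 in WT-RA and 0.0769 to 0.105 in WT-O2 lungs, and 0.264 to 0.378 in KO-RA and 0.0717 to 0.0946 in KO-O2 lungs. H2-DMb2 made up 28.9% to 29.4% of the H2-DMb1 and H2-DMb2 counts in WT-RA and 11.7% to 14.3% in WT-O2 lungs.

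Markers of the cells that carry class II molecules moved in different directions beside these results. All 11 B cell markers, including Ighm and Spib, fell in WT lungs with a fold of at least 2, and their summed level went from 547 to 572 CPM in WT-RA to 153 to 162 in WT-O2, and from 358 to 644 in KO-RA to 131 to 160 in KO-O2. Of 9 macrophage markers 7 rose in WT lungs, with a sum of 334 to 416 CPM in WT-RA and 578 to 624 in WT-O2, and 8 rose and 1 fell in GSDMD-KO lungs (319 to 336 in KO-RA, 453 to 561 in KO-O2). Of 11 dendritic cell markers 5 rose and 5 fell in WT lungs, and their sum overlapped at 176 to 229 and 163 to 191 CPM. Over all genes tested, 24.5% rose and 24.7% fell in WT lungs, and 23.3% and 23.4% in GSDMD-KO lungs. With a fold of at least 2, 11.6% were called in WT lungs in either direction. The 8 alveolar macrophage markers summed to 397 to 777 CPM in WT-RA lungs and to 93.1 to 267 after hyperoxia, and in GSDMD-KO lungs to 137 to 165 and 74.0 to 145. The 8 alveolar type 2 cell markers summed to 20210 to 22800 CPM in WT-RA and 14320 to 17310 in WT-O2 lungs. Their sums were 20830 to 22800 in KO-RA and 14150 to 16580 in KO-O2 lungs. Of these 8, 4 fell in WT and 5 in GSDMD-KO lungs, and 0 rose. Erythroid markers fell in WT lungs, 7 of 7 tested, from sums of 15750 to 18150 CPM in WT-RA to 2920 to 4152 in WT-O2, and in GSDMD-KO lungs 1 of 7 fell. No marker of these lists was at 0 in all 12 lungs. The part of any cell type in the levels of the 7 genes was not tested.

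**Figure D3:**
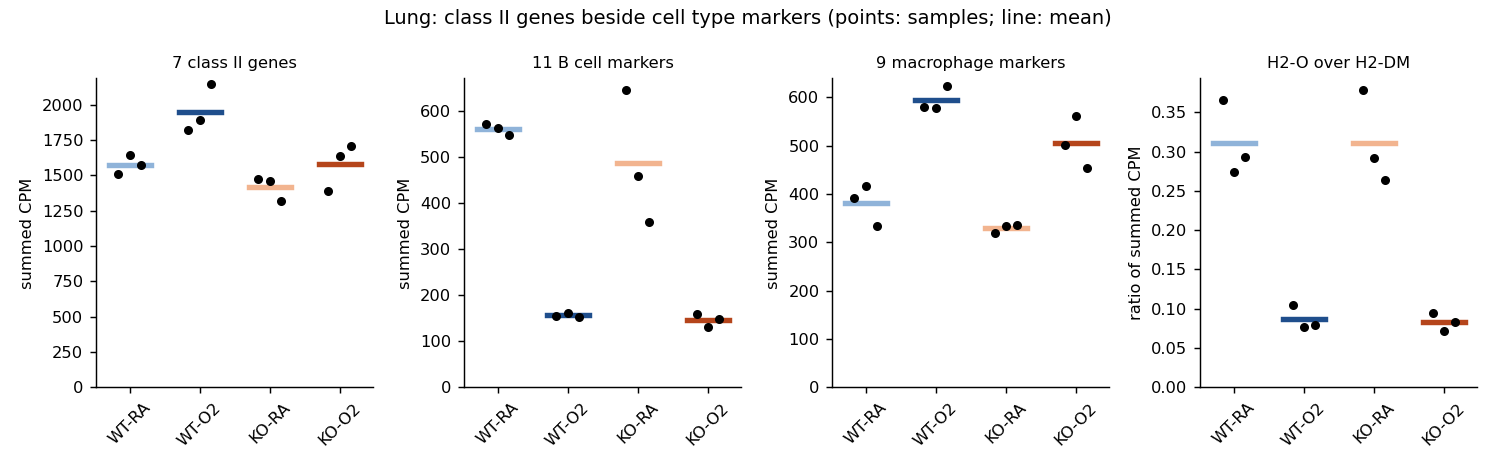
Summed CPM of the 7 class II genes, of 11 B cell markers and of 9 macrophage markers, and the ratio of H2-O to H2-DM CPM, in each lung library (points) with the group mean (line). The B cell sum and the ratio are lower in both hyperoxia groups, whereas the sums of the class II genes and of the macrophage markers are not.

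Of 16 tested regulators of the 7 genes among 18 listed, 1 rose and 9 fell in WT lungs (median log2 fold change -0.22), where 24.5% of all genes rose and 24.7% fell. Among them were Irf1, an interferon-induced activator, from 91.9 to 49.0 CPM (-0.91, SE 0.09, adjusted p = 1.4e-06), and the interferon-gamma receptor chain Ifngr1, from 192 to 107 CPM (-0.84, SE 0.10). Nfya, a subunit of NF-Y, fell by 0.34 and Creb1, a factor that also binds class II promoters, by 0.54. In GSDMD-KO lungs 3 regulators rose and 5 fell, against 23.3% and 23.4% of all genes, with Irf1 at -0.87 (SE 0.09), Ifngr1 at -0.79 (SE 0.10) and Prdm1, a repressor of Ciita, at 0.72 (SE 0.13, adjusted p = 0.00049). Ifng itself and Il10 did not pass the filter on low counts. Interferon-gamma induced genes were mixed, with 3 of 13 higher and 7 lower in WT lungs (Cxcl10, a chemokine, 2.61, SE 0.21; Gbp4, a guanylate-binding protein, -1.89, SE 0.19) and 5 higher and 3 lower in GSDMD-KO lungs. The interactions of genotype and hyperoxia of these 13 genes were all above 0 (median 0.64), whereas those of the 7 class II genes were all below 0. Of the 13, 12 had an unadjusted edgeR p under 0.05 (6.72% of all genes) and 0 passed the adjusted threshold. Between genotypes in room air, all 13 log2 differences of KO-RA against WT-RA were below 0 (median -0.53). Of these, 10 had an unadjusted edgeR p under 0.05 (10.5% of all genes) and 1 passed the adjusted threshold. After hyperoxia, 11 of the 13 were above 0 and 2 below (median 0.10), with 0 unadjusted p under 0.05. The genotypes thus differed in these genes mainly in room air. Class I pathway genes gave 2 higher and 4 lower of 14 in WT lungs, where the immunoproteasome subunit Psmb10 fell by 0.76 (SE 0.11), and 4 higher and 2 lower in GSDMD-KO lungs, where B2m, the light chain of class I, rose by 0.50 (SE 0.10). The costimulation list, which also holds the inhibitory ligands Cd274 and Pdcd1lg2, gave 2 of 7 higher in WT lungs (Cd80 1.88, SE 0.24, and Icosl 0.77, SE 0.11). In GSDMD-KO lungs it gave 6 of 7 higher, with none lower in either genotype.

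Across the 12 lungs, the genes whose log2 CPM pattern was most like the mean pattern of the 7 were Hgfac (Pearson r = 0.917), Naaa (0.905), Gnpat (0.903), Sema4a (0.896), Il4i1 (0.888), Mmp25 (0.885), Uxt (0.883) and Bphl (0.882), out of 14672 genes compared. Naaa, for example, was at 50.1, 70.2, 41.1 and 56.3 mean CPM in WT-RA, WT-O2, KO-RA and KO-O2 lungs. These correlations describe 12 samples that share libraries and group differences, and no test was made.

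In retina the same genes were scarce. Mean levels in WT-RA retinas were 2.43 CPM or less for all but H2-DMa (8.94 ± 1.46, SD, n = 3), and the 2 tables were normalized apart, so that retina and lung levels may be set side by side only as values. Cd74 had 1.33 CPM per kb in WT-RA retinas, under H2-DMa (4.46) and H2-Ab1 (2.01), whereas in lung it stood above both. H2-Aa rested on 2, 8 and 41 counts in the WT-RA libraries and on 4 to 12 in the KO-O2 libraries, so that a few reads decided its value there. H2-DMa exceeded its partner H2-DMb1 (0.627 CPM per kb in WT-RA), and its gene body overlaps Brd2 and antisense genes as in lung. The share of those genes in its retina counts was not tested.

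**Figure D4:**
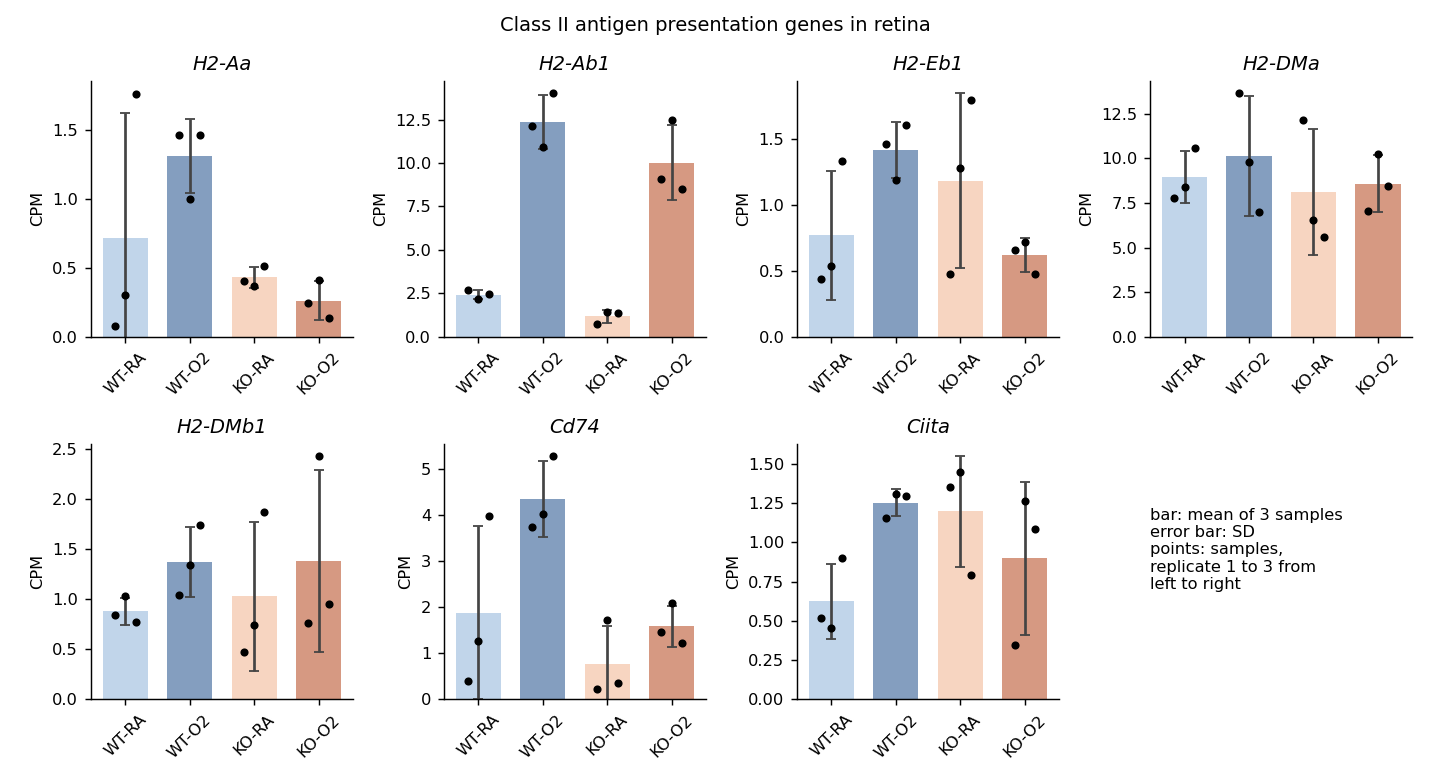
CPM of the 7 genes in each retina library, by group. Bars are means of 3 samples, error bars SD and points the libraries, with linear axes from 0 that differ between genes. H2-Ab1 is at 8.48 CPM or more in all 6 retinas of the oxygen groups and at 2.68 or less in all 6 room air retinas, whereas H2-Aa is at 1.76 CPM or less in all 12.

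Earlier oxygen exposure raised a single gene of the 7 in retina, H2-Ab1, and did so in both genotypes. It measured 2.68, 2.17 and 2.44 CPM in WT-RA and 12.2, 11.0 and 14.02 CPM in WT-O2 retinas, from 57 to 67 counts against 316 to 412. The log2 fold change was 2.35 (SE 0.25), a fold of 5.08, with an edgeR adjusted p of 0.0014. In GSDMD-KO it measured 0.710, 1.45 and 1.35 CPM in KO-RA and 9.09, 12.5 and 8.48 CPM in KO-O2 retinas, a log2 fold change of 3.10 (SE 0.26), a fold of 8.56 and an edgeR adjusted p of 0.00054. Groups did not overlap in either genotype. Non-overlapping higher values were seen for 3 of the 7 in WT (H2-Ab1, H2-DMb1 and Ciita) and 1 in GSDMD-KO retinas, against 12.1% and 13.5% of all genes. With the fold threshold, 1 of 7 was called in WT (background 2.04%, and 5.16% at the adjusted p alone, 3.11% upward) and 1 of 7 in GSDMD-KO retinas (background 2.19%, and 7.82% at the adjusted p alone, 4.38% upward). DESeq2 gave the same 2 counts, and 1 of 7 had an unadjusted p under 0.05 in each genotype, against 17.4% and 20.3% of all genes.

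The call for H2-Ab1 held without the doubtful libraries. In GSDMD-KO retinas H2-Ab1 stayed past the adjusted threshold in 12 of 12 alternative fits, among them that without KO-O2 replicate 3. Its log2 fold changes there ran from 2.84 to 3.29. Without the library labelled WT-RA replicate 2, the log2 fold change in WT was 2.27 (edgeR adjusted p = 0.012). Without the 3 retinas that held lens transcripts, an alternative added after the data had been seen, it was 2.20 in WT (adjusted p = 0.053, with 1 WT-RA retina left, assumed to vary like the other groups) and 3.21 in GSDMD-KO (adjusted p = 0.013). With Y-linked expression as a covariate it was 2.51 and 3.24. The interaction for H2-Ab1 was 0.75 (SE 0.35, unadjusted p = 0.054, edgeR adjusted p = 0.48). In the whole set 0 of 7 interactions passed with edgeR or DESeq2 (background 0.00522%), 6 of the 7 were below 0 (50.3% of all genes), and 1 had an unadjusted p under 0.05 with each tool (10.6% of all genes in edgeR), H2-Eb1 at -1.81 (SE 0.77, edgeR adjusted p = 0.44).

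The alpha chain H2-Aa, without which the H2-Ab1 chain has no I-A partner, did not pass the test. It measured 0.0800, 0.305 and 1.76 CPM in WT-RA and 1.46, 0.998 and 1.46 CPM in WT-O2 retinas, and the ranges overlapped through WT-RA replicate 3, one of the retinas with lens transcripts. Its log2 fold change was 0.87 (SE 0.84, edgeR adjusted p = 0.65). Without WT-RA replicate 3 it was 2.73, past the threshold at an adjusted p of 0.088, and with all 3 lens retinas left out it was 3.96 at an adjusted p of 0.10, which missed it. In GSDMD-KO retinas H2-Aa was at 0.406, 0.370 and 0.517 CPM in KO-RA and 0.243, 0.410 and 0.136 CPM in KO-O2 (log2 fold change -0.70, SE 0.87, edgeR adjusted p = 0.71). The ratio of H2-Ab1 to H2-Aa CPM, chosen after the values were seen, was 8.32 to 11.0 in WT-O2 and 30.4 to 62.5 in KO-O2 retinas, against 1.05 to 1.11 in WT-O2 lungs. H2-Ab1 and H2-Aa share almost no sequence with other genes in the annotation (0.267% and 0.833% of their 31-base sequences).

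The remaining genes did not pass the test in retina. Cd74 measured 0.400, 1.26 and 3.98 CPM in WT-RA and 3.73, 4.02 and 5.28 CPM in WT-O2 retinas (log2 fold change 1.21, SE 0.77, edgeR adjusted p = 0.46), with WT-RA replicate 3 again the one that overlapped. Without that retina the Cd74 log2 fold change was 2.38, and without the 3 lens retinas 3.42, each at an adjusted p of 0.14. In GSDMD-KO it had 0.237, 1.72 and 0.358 CPM in KO-RA and 1.46, 2.09 and 1.22 CPM in KO-O2 retinas (log2 fold change 1.03, SE 0.79, edgeR adjusted p = 0.51). Ciita was at 0.626 ± 0.239 CPM in WT-RA and 1.25 ± 0.0854 CPM in WT-O2 (SD, n = 3; log2 fold change 1.00, SE 0.50, edgeR adjusted p = 0.33), without overlap, and at 1.20 ± 0.352 and 0.899 ± 0.487 CPM in KO-RA and KO-O2. H2-Eb1, H2-DMa and H2-DMb1 had log2 fold changes of 0.88, 0.18 and 0.64 in WT and of -0.93, 0.08 and 0.43 in GSDMD-KO retinas, with edgeR adjusted p of at least 0.37. The median over the 7 was 0.88 in WT and 0.08 in GSDMD-KO, against 0.001 over all genes in both. The medians moved with the libraries used. The WT median was 1.53 without WT-RA replicate 3 and 1.67 without the lens retinas, and the GSDMD-KO median was -0.26 without KO-O2 replicate 2, the retina with the highest value of its group for all 7 genes, and -0.12 without the lens retinas. With Y-linked expression as a covariate they were 1.25 and 0.44.

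Between genotypes no gene of the 7 passed in oxygen-exposed retinas, and the largest differences were in scarce genes. KO-O2 against WT-O2 gave log2 differences of -2.29 for H2-Aa (SE 0.88, unadjusted p = 0.024, edgeR adjusted p = 0.30), -1.45 for Cd74 (SE 0.78, edgeR adjusted p = 0.48) and -1.19 for H2-Eb1 (SE 0.55, edgeR adjusted p = 0.40), each without overlap between the groups, as for 9.86% of all genes in this direction. Erythroid markers were also lower there, 4 of 5 tested past the threshold, with sums of 370 to 429 CPM in KO-O2 and 983 to 1552 in WT-O2. All 8 general leukocyte markers were below 0 (median -0.59, 1 past the threshold), with sums of 53.0 to 63.7 CPM in KO-O2 and 79.1 to 92.5 in WT-O2. The 4 monocyte markers, each at a mean under 1 CPM, were below 0 too (median -1.38). Of the macrophage markers 5 of 9 were below 0, and of the microglia markers 6 of 11. The part of these cells in the differences of the 7 genes was not tested. H2-Ab1 differed by -0.30 (SE 0.24, edgeR adjusted p = 0.67), with ranges of 11.0 to 14.02 and 8.48 to 12.5 CPM that overlap. Of the 7, 6 were below 0 (48.5% of all genes) and 0 passed with edgeR or DESeq2 (background 1.27%, or 0.292% with a fold of at least 2), while 1 had an unadjusted p under 0.05 in edgeR (12.6% of all genes) and 2 in DESeq2. In room air, H2-Ab1 was lower in KO-RA (0.710 to 1.45 CPM) than in WT-RA retinas (2.17 to 2.68 CPM), at -1.06 (SE 0.26, unadjusted p = 0.0017, edgeR adjusted p = 0.24). It was the 1 gene of the 7 with an unadjusted p under 0.05 (12.7% of all genes) and the 1 without overlap (7.09% of all genes in this direction), and 4 of the 7 were below 0 (49.8%). In edgeR 0 of 7 passed (background 0.00522%), whereas DESeq2 called H2-Ab1 at -1.08 with an adjusted p of 0.024. Without the library labelled WT-RA replicate 2 the edgeR value for H2-Ab1 was -1.13 (adjusted p = 0.39), and without the 3 lens retinas it was -1.32 (adjusted p = 0.25). Leaving out those 3 retinas turned Cd74 from -1.27 to 1.27 and H2-Aa from -0.72 to 2.21 in this comparison (adjusted p = 0.63 and 0.40), so that 2 of the 7, H2-Ab1 and H2-DMb1, were then below 0. All 6 room air retinas were Y-positive, as against 1 of 3 in each oxygen group.

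Among related pathways in retina few genes passed the adjusted threshold, but class I and interferon-gamma induced genes had mostly positive log2 fold changes. Of 5 other class II pathway genes tested among 10 listed, 0 passed in WT (edgeR; 2 with an unadjusted p under 0.05) and 1 rose in GSDMD-KO, Ctss, from 12.2 to 22.0 CPM (log2 fold change 0.85, SE 0.21, adjusted p = 0.048); in WT it was at 12.9 and 21.1 CPM (0.71, SE 0.21, adjusted p = 0.11). Among 16 regulators, 1 passed in WT, Creb1 (0.47, SE 0.13, adjusted p = 0.086), and 0 passed in GSDMD-KO, where 2 had an unadjusted p under 0.05. Class I genes gave 2 of 14 higher in WT, B2m from 56.2 to 109 CPM (0.96, SE 0.24, adjusted p = 0.059) and the heavy chain H2-D1 (0.60, SE 0.17), and 2 higher and 1 lower in GSDMD-KO, with the heavy chain H2-K1 from 12.6 to 39.0 CPM (1.63, SE 0.27, adjusted p = 0.012). Class I values lay wholly above room air values for 5 of 14 genes in WT and 6 in GSDMD-KO, against 12.1% and 13.5% of all genes, and 5 and 7 were higher at an unadjusted p under 0.05, while 2 were lower in GSDMD-KO. Interferon-gamma induced genes gave 2 of 12 higher in WT (Gbp7 1.00, SE 0.21; Icam1, an adhesion molecule, 1.10, SE 0.27) and 0 in GSDMD-KO, where 2 had an unadjusted p under 0.05. In WT 11 of the 12 were above 0, with a median of 0.67, 9 lay wholly above room air and 6 were higher at an unadjusted p under 0.05. In GSDMD-KO 9 of the 12 were above 0, with a median of 0.15, and 1 lay wholly above room air. Gene by gene, the interaction of genotype and hyperoxia was below 0 for all 12, against 50.3% of all genes. Each had an edgeR adjusted p of at least 0.31, and the list as a whole was not tested. The costimulation list, with the inhibitory ligand Cd274 among the genes tested, gave 0 of 6 in either genotype at the adjusted or the unadjusted threshold. Cd86 was at 0.72 (SE 0.36) and 0.70 (SE 0.36).

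General leukocyte, macrophage and microglia markers had higher sums beside H2-Ab1 in the oxygen-exposed retinas. Perivascular macrophage and monocyte markers did not do so in both genotypes. The 8 general leukocyte markers summed to 34.4 to 45.3 CPM in WT-RA, 79.1 to 92.5 in WT-O2, 36.4 to 36.5 in KO-RA and 53.0 to 63.7 in KO-O2, and 9 macrophage markers to 49.6 to 70.5, 105 to 151, 43.0 to 67.3 and 102 to 142 CPM. The 11 microglia markers summed to 45.3 to 65.4, 70.9 to 100.4, 52.6 to 54.9 and 69.0 to 86.1 CPM. At the adjusted threshold 4 of 9 macrophage markers were higher in WT and 4 in GSDMD-KO, and 3 and 5 of 11 microglia markers. Over all genes tested the shares were 3.11% in WT and 4.38% in GSDMD-KO. Dendritic cell markers were low, with 8 of 11 at a mean under 1 CPM and sums of 7.05 to 10.7 CPM over all 12 retinas. B cell markers, 8 of 11 also under 1 CPM, had mean sums of 11.9 CPM in the room air and 21.2 in the oxygen group in WT and of 8.93 and 12.9 in GSDMD-KO, beside 16.2 and 32.2 and 13.9 and 23.4 for the 7 class II genes. Of 10 B cell markers tested 0 passed in either genotype (edgeR; 0 with an unadjusted p under 0.05 in WT and 3 in GSDMD-KO). Pigment epithelium markers had lower sums in the oxygen groups, with 0 of 8 past the adjusted threshold in edgeR and 6 of 8 at an unadjusted p under 0.05 in GSDMD-KO (0 in WT), and sums of 335 to 2724 CPM in KO-RA and 101 to 273 in KO-O2, and of 218 to 648 in WT-RA and 105 to 255 in WT-O2. No marker of these lists was at 0 in all 12 retinas, and the part of any of these cells in the level of H2-Ab1 was not tested.

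Across the 12 retinas, the 4 members with a mean of at least 1 CPM (H2-Ab1, H2-DMa, H2-DMb1 and Cd74) had a mean pattern most like Erf (Pearson r = 0.958), Plp2 (0.957), Tgfb1 (0.956), Thg1l (0.952), Cd68 (0.944), C4b (0.938), Lad1 (0.935) and Col4a1 (0.934), of 15657 genes compared. H2-Ab1 alone, a profile chosen after its values were seen, was most like Rras (0.972), H2-Q7 (0.971), Ndufa4l2 (0.971), Capg (0.964), Vegfa (0.964), Plod1 (0.963), Mcam (0.959) and Kdelr3 (0.955). Among these, Vegfa, the growth factor of new vessels, had mean levels of 245, 585, 221 and 442 CPM in WT-RA, WT-O2, KO-RA and KO-O2 retinas, and Cd68, a lysosomal protein of macrophages and microglia, 7.42, 15.7, 4.08 and 12.4 CPM. The points share their libraries and the difference between oxygen and room air, so these values describe the 12 samples and were not tested.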

How the data were processed

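Whole-lung and retina RNA of 24 mice was sequenced as paired reads. The deposited values are expected counts per gene, which the authors estimated with kallisto against mouse transcripts and summed to genes with tximport. The labels name the build mm10 and the supplementary methods a GRCm39 annotation, so coordinates here are from GRCm38 (GENCODE M21), matched by Ensembl ID and not taken from the count tables. In lung 55.8% and in retina 2.20% of nonzero values were whole numbers (within 0.01), and tests stayed within a tissue.

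Counts were rounded. Genes were filtered by group (filterByExpr), scaled by TMM and fitted with edgeR 4.0.16 (quasi-likelihood, robust; R 4.3.3), with 1 term per group over the 12 samples of a tissue and 5 contrasts. Adjusted p (Benjamini-Hochberg) is over all genes tested, and "rose" or "fell" means an adjusted p under 0.1; a call also needed p under 0.05 and a fold of at least 2, as in the study. SE is the log2 fold change divided by the root of F. CPM use TMM factors, and CPM per kb divide by the longest coding transcript. DESeq2 1.42.0 was an alternative. The scripts were tested on simulated data. The deposited labels also carry a cell culture protocol that does not describe these tissues and was not used.

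The 7 genes and all gene lists were chosen with earlier results of these data known. All 7 are reported whatever their values, with at most 4 genes named per list and comparison, among those with the 4 smallest p. Ighm, Spib, Cd274 and Pdcd1lg2 are named only as examples of their lists. Genes most like the 7 are the 8 with the highest Pearson r to the mean z-scored log2 CPM of the members with at least 1 CPM. Replicates are separate mice; replicate numbers follow accession order and only name samples. Replicates differed by more than sampling noise, so none was counted as a repeat of another. Depth was 24863257 to 29604254 counts per library, and low counts limit the retina values.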

Additional observations from a re-analysis of the deposited data

How the results depend on the processing

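The 7 genes were refitted with RLE size factors, without the filter on low counts, with DESeq2, with Y-linked expression as a covariate, on only the groups compared, and without each replicate in turn. A retina fit without the 3 lens libraries was chosen after seeing the data. Of 420 such values in lung 400 kept their direction and side of the threshold, as did 421 of 455 in retina. No gene past the threshold changed direction, while 13 lung and 32 retina values that had not passed changed sign. In WT lungs a fold of at least 1.5 in place of 2 called 2 of the 7, Ciita and H2-DMb1. Leaving out 1 replicate gave 2 to 4 genes past the adjusted threshold in GSDMD-KO lungs (4 without KO-O2 replicate 1) and 3 to 5 in WT lungs (3 without WT-O2 replicate 3, which took out H2-Ab1). In WT retinas, called or past the adjusted threshold, it gave 1 to 2 genes (2 without WT-RA replicate 3, which added H2-Aa). In KO-RA against WT-RA retinas DESeq2 called 1 gene by both rules, H2-Ab1. Why these fits differ was not tested beyond the libraries named. Retina values of H2-Aa, Ciita, H2-Eb1 and H2-DMb1 rest on few counts, and with 3 mice a group a difference that misses the threshold is not shown to be absent. No paired analysis was possible because the replicate numbers only follow the order of the samples and mark no shared animal, litter or day.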
